A study of Danio rerio with 6 samples.

Results

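Heart muscle cells of the zebrafish atrioventricular canal that were classed as GFP-negative were profiled by RNA-seq in 3 of the 6 libraries of the series. The 3 were taken by their titles, which call them GFP-negative cardiomyocytes and number them replicates 1, 2 and 3. The other 3 libraries are GFP-positive cells of the same fish lines and were not used here. The group is described alone, so no test between groups was made and no p-value is given.

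The adult fish, aged 4 to 8 months, carried the nuclear marker Tg(myl7:NLS-mCherry), the reporter Tg(UAS:EGFP) and its driver Tg(myl7:GAL4db-TCFΔC-2A-mCherry). The fusion of the GAL4 DNA-binding domain with a truncated TCF drives EGFP where β-catenin is active, and its myl7 promoter restricts it to heart muscle cells, as it does the nuclear mCherry. The titles say only that these are GFP-negative cardiomyocytes, which with this reporter would be canal cardiomyocytes without reporter activity. Dissected canals were taken apart in 3 mg/ml collagenase over 30 min. SYTOX blue marked dead cells, and live cells were collected by flow cytometry. The label for the sorted fraction of these libraries, like the protocol, names mCherry- EGFP+ cells, which goes against the titles and descriptions, so the gate that was used is not settled. The labels do not say whether the replicates came from separate fish or separate sorts, so the spread between them may be technical.

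The atrioventricular canal is the ring of muscle between atrium and ventricle that bears the valves and slows conduction before the ventricle contracts. A heart muscle cell spends much of its RNA on the contractile apparatus and on the machinery that makes ATP for it. The zebrafish genome kept many gene pairs from an ancient genome duplication, so a contractile protein, an ion channel or an enzyme is often encoded by a pair of paralogs, of which a tissue may use mainly a single gene.

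The libraries held 16275969, 17210180 and 19750914 counts in replicates 1, 2 and 3 over 25281 gene rows. Levels are given as CPM, counts per 1e6 counts of the library, as the mean ± SD of 3 libraries or as 3 values in the order of the replicate numbers. A gene of 1 CPM rested on 16 to 20 counts. The counts come from amplified cDNA without molecular identifiers, so every counting error below covers counting alone. CPM is not divided by transcript length, and a long transcript gives more counts per molecule, so ranks and shares are ranks and shares of counts, not of RNA molecules.

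In total 11231 genes had at least 1 CPM in all 3 libraries, 5025 had at least 10, 879 at least 100, 106 at least 1000 and 11 at least 10000. Of the remaining rows, 4041 had no count in any library. The counts were concentrated in few genes: 47, 72 and 76 genes held 50% of the counts of replicates 1, 2 and 3. The 10 most abundant genes of a library held 30.9%, 27.3% and 25.04% of it, and the 100 most abundant 58.6%, 53.6% and 53.3%. Replicate 1 was thus the most concentrated of the 3. Pearson correlations of log2 CPM across the 11231 genes, which are not independent replicates, were 0.964 between replicates 1 and 2, 0.970 between 1 and 3 and 0.976 between 2 and 3.

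**Figure D1:**
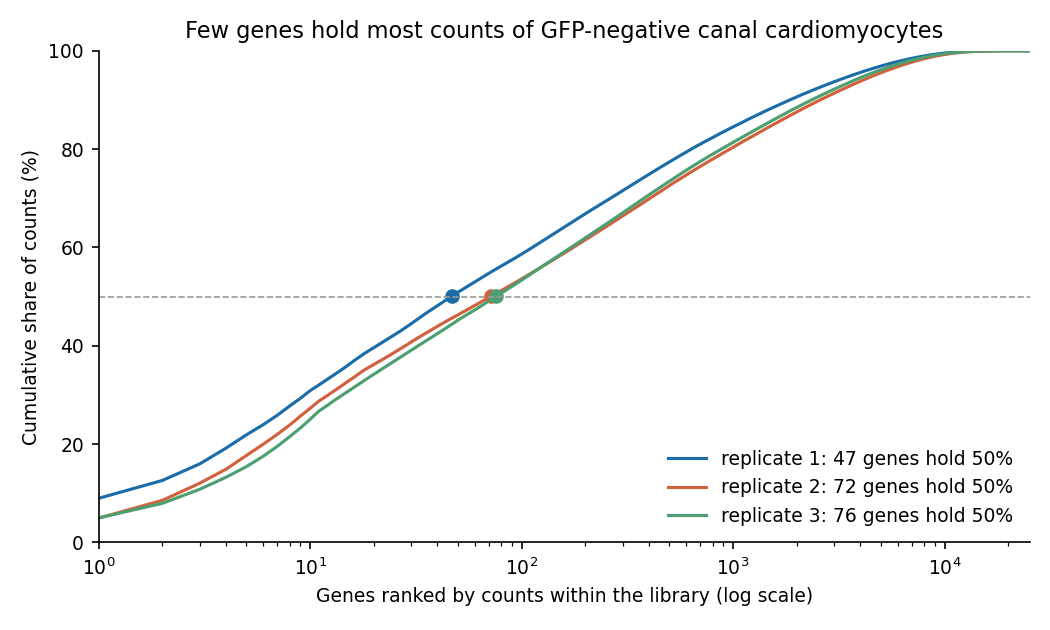
Cumulative share of counts (%) against the rank of genes by counts within each library (log scale), 1 line per GFP-negative library, with a dot where 50% of the counts is reached. The line of replicate 1 runs above the others and reaches 50% at 47 genes, against 72 and 76 genes in replicates 2 and 3.

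The cardiomyocyte label was checked against its markers, which were abundant. The 11 rows of the cardiomyocyte marker list summed to 113515, 114978 and 125156 CPM. Marker sums of other cell types were far lower: 94.1, 209.8 and 156 CPM for 10 endocardial and endothelial genes, 139, 399 and 276 CPM for 10 fibroblast genes, 179.7, 610.5 and 172 CPM for 6 macrophage genes and 852, 1081 and 1113 CPM for 8 erythrocyte rows. Lymphocyte markers summed to 2.09, 4.82 and 2.08 CPM and markers of neurons and glia to 3.26, 2.56 and 1.67 CPM. The skeletal muscle list had the highest sum of another cell type, 10143, 8846 and 10689 CPM, carried by the genes ckma and acta1b. In such bulk libraries, fewer cells of a type and less RNA per cell cannot be told apart.

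By summed CPM the chamber markers were mainly ventricular, largely through the myosin gene myh7l. Of the 5 ventricular markers found, myh7l (ENSDARG00000079782), a ventricular myosin heavy chain, stood at 19147 ± 3209 CPM and the natriuretic peptide gene nppb at 2613 ± 999 CPM. The 5 atrial markers summed to 913, 857 and 1235 CPM, led by the troponin C gene tnnc1b at 476 ± 107 CPM and the atrial myosin gene myh6 at 418 ± 136 CPM. Of the transcription factor genes of these lists, the ventricular ones were above the atrial ones with the exception of tbx5a. Ventricular irx1a and hey2 had 61.4 ± 20.1 and 56.9 ± 4.85 CPM. Atrial nr2f1a and nr2f2 were below both at 19.3 ± 8.70 and 2.17 ± 1.04 CPM. tbx5a, which was placed in the atrial list, was above both at 86.1 ± 10.2 CPM. The markers of canal muscle were present at low levels: the T-box repressor gene tbx2b had 18.7, 24.7 and 26.6 CPM, the signal gene bmp4 3.56, 6.45 and 6.58 CPM and tbx3a, a T-box gene of the conduction system in mammals, 2.76, 2.03 and 1.42 CPM. has2, which makes the hyaluronan of the valve cushions, had 6, 20 and 3 counts. Of the pacemaker markers, shox2 had 13, 11 and 35 counts, hcn4 9, 20 and 19 counts, and isl1 none. A count of 0 allows up to 0.184, 0.174 and 0.152 CPM in replicates 1, 2 and 3, the value of 3 counts.

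The most abundant gene was gapdh (ENSDARG00000043457), which encodes a glycolytic enzyme, with 89765, 49368 and 49881 CPM. Its level in replicate 1 was far above that in the other replicates. Next came the mitochondrially encoded cytochrome c oxidase genes mt-co1 at 32731 ± 3945 CPM and mt-co2 at 31865 ± 6329.8 CPM, and then myl7 (ENSDARG00000019096), the regulatory light chain of heart myosin, with 32179, 28649 and 29600.4 CPM. mt-co3 and mt-cyb, the cytochrome b gene, stood at ranks 5 and 6. The leading nuclear gene of the mitochondrion was slc25a5 (ENSDARG00000092553), an ADP/ATP carrier of the inner membrane, with 19328, 18778 and 19524 CPM. In plain CPM these 3 values lay close together, unlike those of gapdh. With the TMM or DESeq2 scalings described below, slc25a5 was highest in replicate 1 in place of replicate 3. Near-identical carrier genes may have lost reads to it or it to them in the counting.

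Of the 25 genes with the highest mean CPM, 8 belonged to the sarcomere, 6 were mitochondrially encoded, 4 belonged to glycolysis and 2 to the phosphagen and adenylate class. Ranks 8 to 12 were held by sarcomere genes alone: myh7l, the cardiac actin rows actc1a_2 and actc1a_1, the essential myosin light chain gene cmlc1 and the tropomyosin gene tpm4a. The oxygen store myoglobin, encoded by mb, came at rank 13 with 9084 ± 1098 CPM, the aldolase gene aldoaa at rank 15 and the troponin I gene tnni1b at rank 16. fosab (ENSDARG00000031683), a FOS-family transcription factor gene of the immediate early response, was at rank 17 with 6353, 7671 and 10659 CPM, highest in replicate 3. The remaining places went to mt-atp6, mt-nd4, the enolase gene eno3, the ATP synthase beta subunit gene atp5f1b, ppdpfa, the creatine kinase gene ckma, the troponin C gene tnnc1a, the sarcoplasmic reticulum calcium pump gene atp2a2a and the lactate dehydrogenase gene ldhba. ppdpfa, at 5229.5 ± 567 CPM, was the only gene of the 25 outside the functional classes. Together the 25 genes held 42.2%, 38.5% and 36.71% of the counts.

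The 23 functional classes covered all but 29.2 ± 2.63% of the counts. Sarcomere genes took 15.7 ± 1.04%, the 13 mitochondrially encoded genes 14.1 ± 2.01%, glycolysis and glycogen genes 9.86 ± 2.74% and nuclear genes of oxidative phosphorylation 8.40 ± 0.470%. The 6 classes of energy metabolism summed to 43.9%, 38.4% and 35.9%. That share was highest in replicate 1 and lowest in replicate 3.

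**Figure D2:**
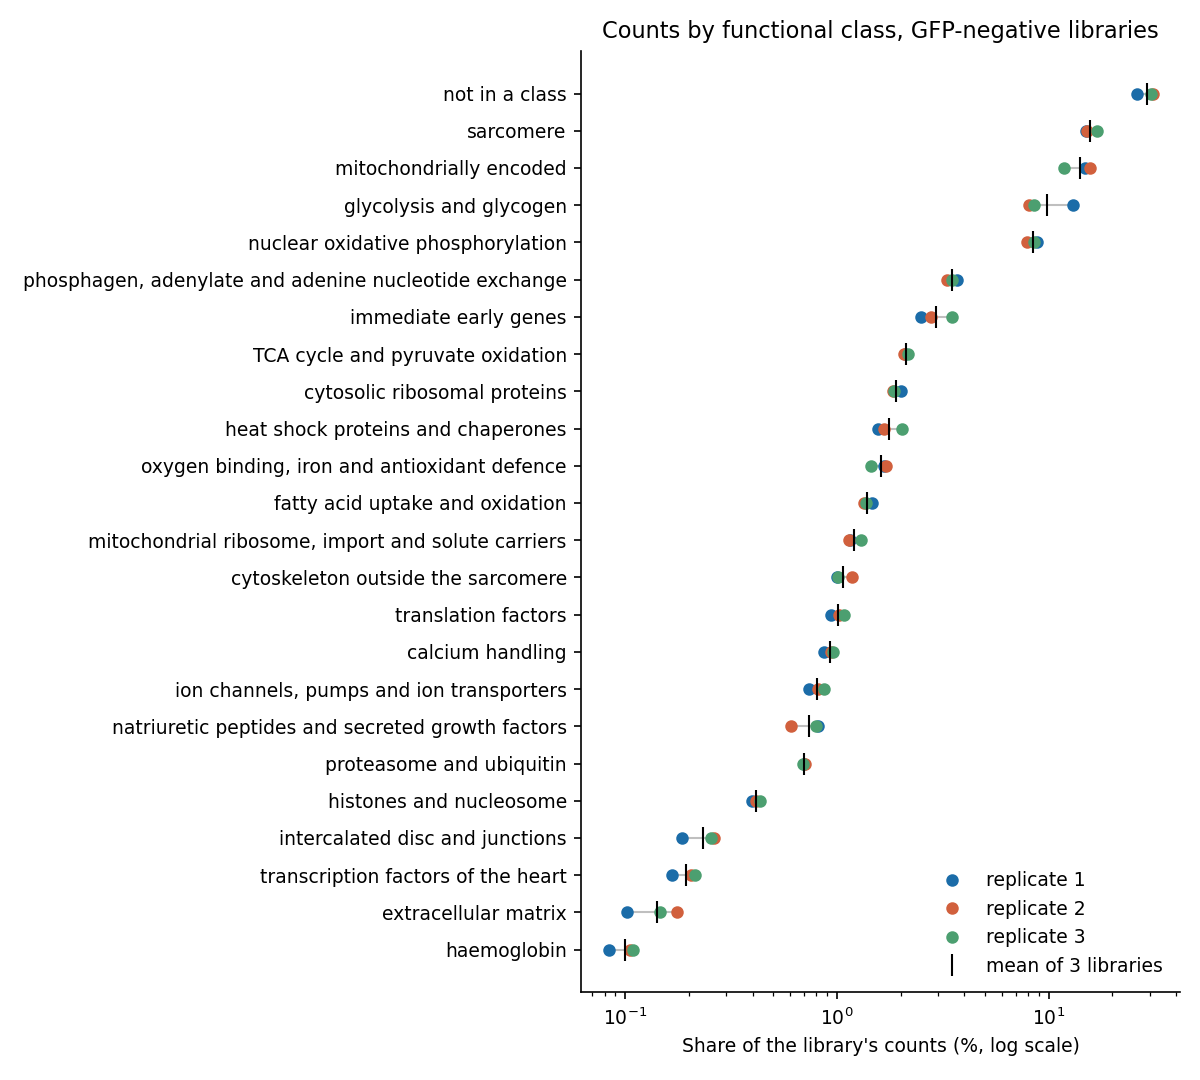
Share of each library's counts (%, log scale) taken by 23 functional classes and by genes in none of them, 1 dot per GFP-negative library and a tick at the mean. Sarcomere and mitochondrially encoded genes are the highest classes, and the widest relative gaps are in glycolysis (13.0% in replicate 1 against 8.07% and 8.50%) and in the extracellular matrix (0.102%, 0.176% and 0.146%).

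The glycolytic share was 13.0%, 8.07% and 8.50%, highest in replicate 1. gapdh alone took 8.98%, 4.94% and 4.99%, and without it the class took 4.04%, 3.14% and 3.51%. Replicate 1 remained the highest, by a far smaller margin. Aldolase, enolase and lactate dehydrogenase followed gapdh: aldoaa had 9943, 7910.5 and 8822 CPM, eno3 7557, 4727 and 6120.2 CPM and ldhba 5677, 4333 and 4335 CPM. Each of the 3 was highest in replicate 1. pkma, which encodes the pyruvate kinase of the last step, had 1158, 1099 and 1173 CPM and varied less.

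All 13 protein genes of the mitochondrial genome were detected in every library, over a wide range. The core subunits of cytochrome c oxidase were on top, with 33547, 36204 and 28442 CPM for mt-co1, 36288, 34693 and 24614 CPM for mt-co2 and 27128, 28134 and 21048 CPM for mt-co3. These 3 genes held 63.8% of the class. The complex III gene mt-cyb had 20589, 22756 and 17814 CPM, and the ATP synthase gene mt-atp6 9116, 10585 and 7314 CPM. Of the complex I subunits mt-nd4 was highest with 7750.2, 9379.5 and 7023 CPM, mt-nd6 stood at 1896 ± 196 CPM and the short mt-nd4l lowest at 379 ± 77.6 CPM. Replicate 3 had the lowest class share, 14.8%, 15.7% and 11.9% in the replicates' order.

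Nuclear oxidative phosphorylation was spread over many genes, with 119 of 124 rows at 1 CPM or more in all 3 libraries. The subunits of ATP synthase, which turns the proton gradient into ATP, took 3.20 ± 0.204%, those of cytochrome c oxidase (complex IV) 1.97 ± 0.0930% and those of NADH dehydrogenase (complex I) 1.95 ± 0.0941%. Complex III took 0.754 ± 0.0359% and complex II, the succinate dehydrogenase, 0.195 ± 0.0127%. These are sums over different numbers and lengths of subunits. Among single genes, atp5f1b led with 5145, 5751 and 6772 CPM, followed by cox6a2 with 4506, 4096 and 4481 CPM and atp5po with 4829, 3106 and 3631 CPM. The 3 did not move together: atp5f1b was highest in replicate 3 and atp5po in replicate 1.

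Genes of the TCA cycle and pyruvate oxidation took 2.11 ± 0.0537% and those of fatty acid uptake and oxidation 1.39 ± 0.0656%. The TCA class was led by mdh2, the mitochondrial malate dehydrogenase, at 4769 ± 350.3 CPM, mdh1aa at 2017 ± 278 CPM and got2a, the mitochondrial aspartate aminotransferase, at 1617 ± 89.0 CPM. mdh2 and got2a are enzymes of the malate-aspartate shuttle, which carries reducing power from glycolysis into the mitochondrion. The fatty acid class was led by fabp3, a carrier of fatty acids in the cytosol, at 2280.4 ± 359.9 CPM, and by the acyl-CoA dehydrogenases acadvl at 1621 ± 125 CPM and acadm at 1220.2 ± 159 CPM. The phosphagen and adenine nucleotide class, which buffers ATP, took 3.51 ± 0.191%, of which slc25a5, ckma and the adenylate kinase gene ak1 made up 77.7%. ak1 had 4366, 2062 and 2442 CPM, so replicate 1 was again highest.

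Immediate early genes, which are transcribed soon after a stimulus without new protein synthesis, took 2.51%, 2.79% and 3.48%. They were the sixth class by share, above the ribosomal proteins at 1.90 ± 0.0890%. After fosab came the AP-1 partner genes junbb with 2218, 2035 and 3039.6 CPM and jun with 1773, 1814 and 2590.1 CPM. btg2, socs3a and mycb had 2028 ± 257, 1383 ± 239 and 1299.9 ± 209 CPM. Of the 40 members that averaged 50 CPM or more, 22 were highest in replicate 3 and 25 lowest in replicate 1. Of all 1881 genes of that level 46.5% were highest in replicate 3 and 57.3% lowest in replicate 1, so the members were near the whole. With the TMM or DESeq2 scalings described below, replicate 3 was the highest for 18 and 19 of them, and 20 were lowest in replicate 2 under either. Of all genes of that level, 32.6% and 33.7% were then highest in replicate 3, and 53.3% and 62.4% lowest in replicate 2. The share taken by heat shock proteins and chaperones, 1.57%, 1.67% and 2.02%, was also highest in replicate 3, although with TMM scaling 22 of its 40 genes of that level were highest in replicate 1, as were 51.6% of all genes of that level. hsp70l, an inducible HSP70 gene, had 733, 1315 and 1131 CPM and hsp70.3 531, 1101 and 1197 CPM, both lowest in replicate 1 under each scaling. These libraries were made from enzymatically digested and sorted tissue, and the part of the digestion in these levels was not tested.

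The smaller classes held the regulators of excitation and of the cell's structure. Calcium handling genes took 0.924 ± 0.0465%, ion channels, pumps and ion transporters 0.809 ± 0.0656%, natriuretic peptides and growth factors 0.737 ± 0.113% and heart transcription factors 0.194 ± 0.0249%. The natriuretic peptide genes nppa and nppb, which encode hormones of the stretched heart that lower blood volume, had 4110.0, 3877 and 4219 CPM and 3334, 1472 and 3031 CPM. In plain CPM nppa varied little, while nppb in replicate 2 was below its level in both others. Under each scaling nppa was also lowest in replicate 2. With TMM or DESeq2 factors nppa was highest in replicate 1 in place of replicate 3. Oxygen binding, iron and antioxidant genes took 1.61 ± 0.135%, mostly mb, followed by the glutathione transferase gene gstr at 1068 ± 48.3 CPM and the mitochondrial superoxide dismutase gene sod2 at 752 ± 89.97 CPM. Junction genes took 0.234 ± 0.0427%, led by the adherens junction genes cdh2 (N-cadherin) at 621 ± 131 CPM and ctnnb1 (β-catenin) at 485 ± 81.8 CPM. Extracellular matrix genes took 0.102%, 0.176% and 0.146%, lowest in replicate 1, and haemoglobin genes 0.0835%, 0.106% and 0.109%.

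As shares of plain library totals, the housekeeping classes were modest and even. Their evenness was not computed with TMM or DESeq2 factors. The most abundant ribosomal protein genes, rps2, rpl3 and rpl19, stood at 1028 ± 224, 1021 ± 110.2 and 895 ± 38.5 CPM, and all 86 rows of the class had at least 1 CPM in all 3 libraries. Translation factors took 1.02 ± 0.0693%, led by the elongation factor gene eef1a1l1 at 2642 ± 85.2 CPM. Proteasome and ubiquitin genes took 0.698%, 0.708% and 0.691%, the narrowest relative range of the classes, led by the polyubiquitin gene ubb at 674 ± 130.4 CPM. Histone and nucleosome genes took 0.414 ± 0.0186%, led by the high-mobility-group gene hmgb2a at 796 ± 97.2 CPM. Cytoskeletal genes outside the sarcomere took 1.06 ± 0.0956%, led by the cytoplasmic actin gene actb2 at 2395 ± 501 CPM and the tubulin gene tuba8l2 at 787 ± 135 CPM. Genes of the mitochondrial ribosome, import and solute carriers took 1.20 ± 0.0903%, led by slc25a11, the oxoglutarate carrier of the malate-aspartate shuttle, at 592 ± 41.3 CPM.

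Which paralog led was clear in most families. Of 78 contractile, channel and transport, and metabolic families with more than 1 row, the leading gene took at least 90% of the family's counts in 19, from 50% to 90% in 51, and under 50% in 8. The same gene led in all 3 libraries in 73 families. In 69, the leading gene's lowest library was above the runner-up's highest. The median share of the leading gene was 80.2% in 20 contractile, 70.33% in 22 channel and transport, and 73.5% in 36 metabolic families. Paralogs of unequal length are favoured in these shares by their length, and copies of near-identical sequence may have had reads split or dropped in the authors' counting.

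**Figure D3:**
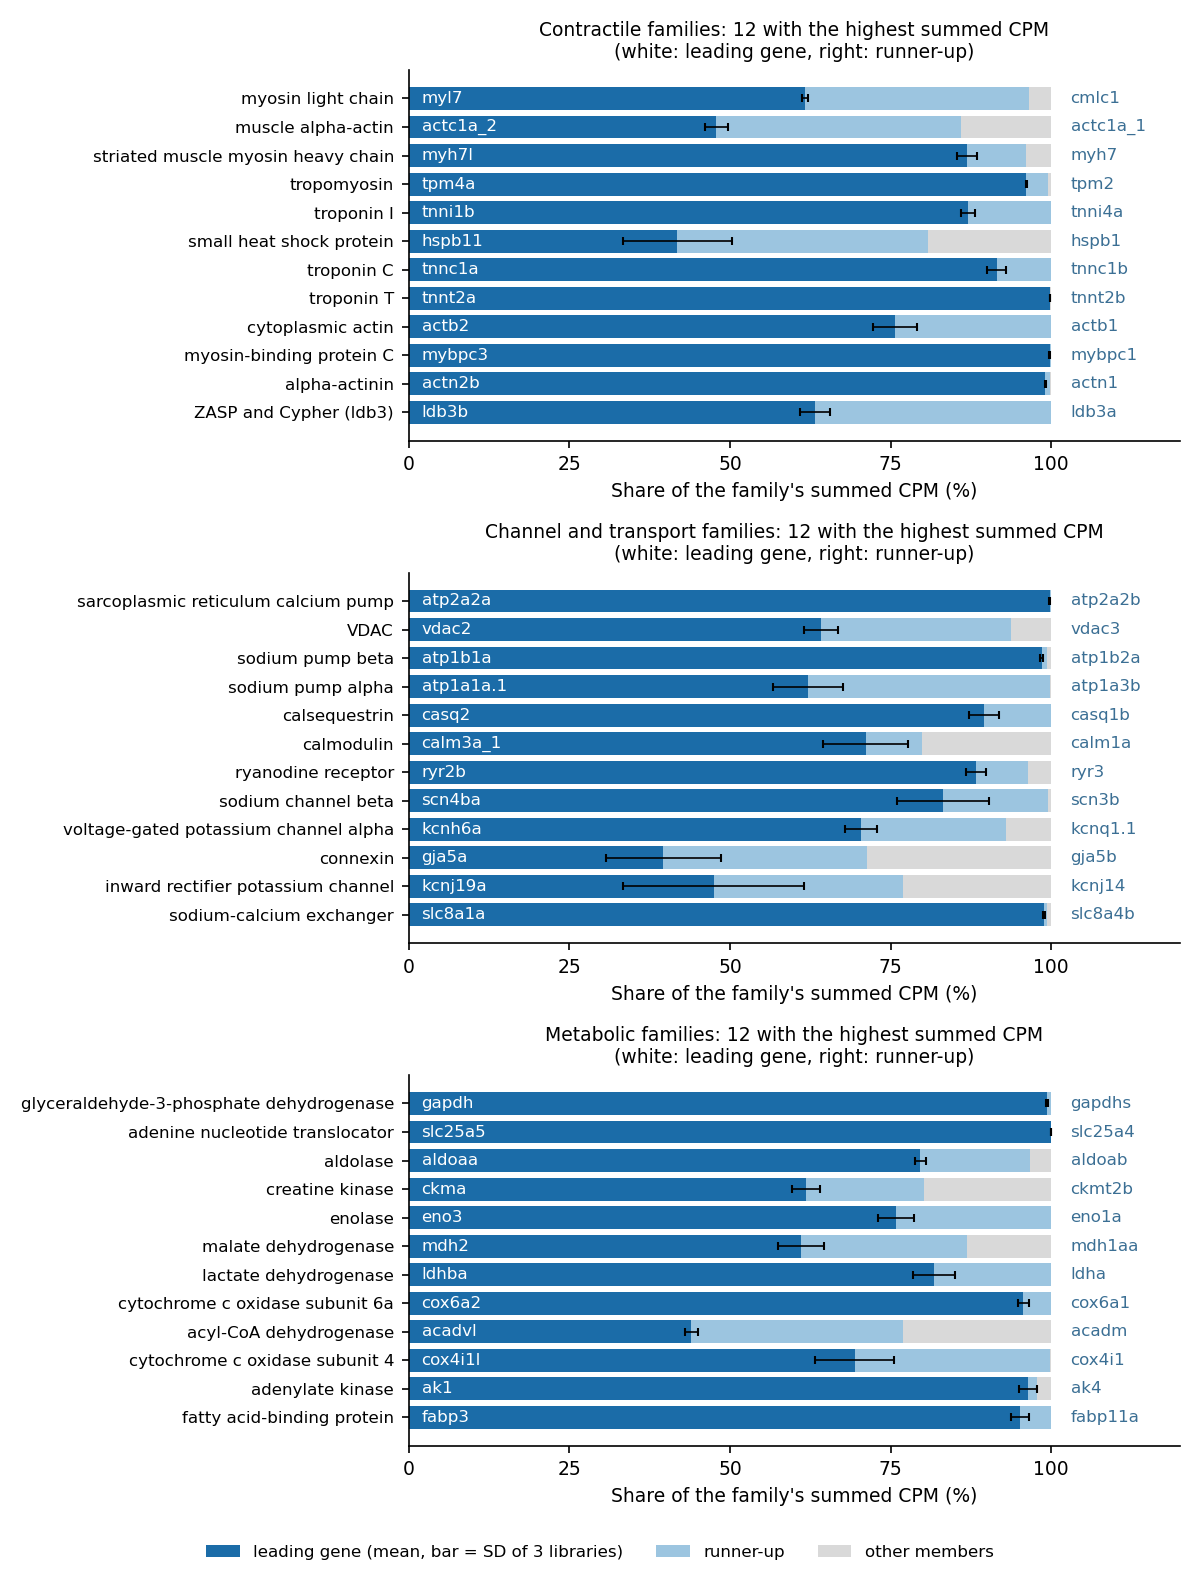
Share of a family's summed CPM (%) taken by its leading gene (dark bar, named in white, error bar SD of 3 libraries), its runner-up (light bar, named at the right) and its other members (grey), for the 12 families of each kind with the highest summed CPM. Troponin T, the sarcoplasmic reticulum calcium pump and the ADP/ATP carrier were nearly all a single gene, whereas inward rectifier channels, connexins and small heat shock proteins were divided, with the widest error bars of the families drawn.

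The thick filament was built on few genes. Among striated muscle myosin heavy chains myh7l took 86.9 ± 1.61%, the related myh7 (ENSDARG00000079564) 9.17 ± 1.21% and the atrial myh6 1.87 ± 0.314%. The gene name table calls these 2 ventricular rows MYH7 and MYH6 in that order, while the files' symbols are used here. Of the light chains myl7 took 61.7 ± 0.515% and cmlc1 34.8 ± 0.631%. Myosin-binding protein C came almost wholly from mybpc3, with 2101, 3231 and 3701 CPM, lowest in replicate 1. The titin genes ttn.2 and ttn.1, whose proteins span from Z-disc to M-band, had 622, 799 and 704 CPM and 382, 497 and 462 CPM, and ttn.2 took 61.3 ± 0.847% of the pair. Myomesin, the M-band linker, was led by myom1b with 72.7 ± 0.688% over myom2a.

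In the thin filament, troponins and tropomyosin each had a clear leader and actin was divided. Among muscle α-actins actc1a_2 (ENSDARG00000042535) took 47.9 ± 1.76%, actc1a_1 (ENSDARG00000076126) 38.2 ± 2.49% and acta1b 12.6 ± 2.27%. The libraries of the 2 actc1a rows overlapped in level, their sequences are close, and the split between them is uncertain. Together they took 2.72%, 3.31% and 3.77% of all counts. tnnt2a, the cardiac troponin T gene, had 3654, 3252 and 3729 CPM and took 99.8 ± 0.0213% of its family. tnni1b took 87.0 ± 1.04% of troponin I with tnni4a as runner-up, tnnc1a 91.5 ± 1.49% of troponin C over tnnc1b, and tpm4a 96.1 ± 0.0615% of tropomyosin over tpm2. The same troponin and tropomyosin genes led in each library.

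At the Z-disc, actn2b took 99.0 ± 0.0889% of α-actinin, myoz2b 98.3 ± 0.0962% of myozenin, flnca 83.8 ± 2.36% of filamin and ldb3b 63.2 ± 2.30% of the ZASP pair over ldb3a. The intermediate filament gene desma took 98.6 ± 0.184% of desmin and vimentin. Leiomodins act at the pointed end of the thin filament: lmod2b had 161, 173 and 163 CPM and lmod2a 157, 128 and 58.7 CPM. lmod2b was the higher of the pair in each library, and lmod2a was lowest in replicate 3. Outside the sarcomere, myh14 took 61.2 ± 3.06% of the non-muscle and smooth muscle myosins and actb2 75.6 ± 3.44% of the cytoplasmic actins, and nrap, which links actin to the membrane during myofibril assembly, 76.6 ± 6.21% of the nebulin family. The small heat shock proteins, chaperones of the Z-disc and cytoskeleton, had no steady leader. hspb11 had 3323, 1819.7 and 3489.6 CPM and hspb1 2307, 2512 and 3013 CPM, so hspb1 led in replicate 2 and hspb11 in the others.

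Excitation and contraction are coupled by calcium. The release channel of the sarcoplasmic reticulum came mainly from ryr2b, with 193, 261 and 308 CPM and 88.3 ± 1.54% of its family, ahead of ryr3. The pump that refills the store, atp2a2a, had 4614, 4838 and 5425 CPM and took 99.8 ± 0.0872%. casq2, the calcium buffer of the store, took 89.6 ± 2.31% over casq1b. The surface exchanger slc8a1a took 98.9 ± 0.224% and jph2, which ties the surface membrane to the reticulum, 72.1 ± 3.69%. All 5 led in all 3 libraries. Of the calmodulin rows calm3a_1 took 71.1 ± 6.60% of the counts, and calmodulin genes are close copies.

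Voltage-gated calcium channel α1 subunits were of low level. cacna1g, a T-type channel gene, had 15.5, 33.4 and 36.71 CPM and took 73.3 ± 2.15% of the family, and cacna1c, the L-type channel of the heart, 3.99, 5.29 and 7.65 CPM and 15.2 ± 3.21%. cacna1g was above cacna1c in each library. Their partner subunits were led by cacnb1 with 65.8 ± 2.22% and cacna2d1a with 70.2 ± 4.76%. The cardiac sodium channel gene scn5lab had 8.17, 13.2 and 12.1 CPM and scn4ab 5.41, 5.87 and 7.85 CPM. The accessory subunit gene scn4ba, at 159 ± 36.4 CPM, gave many more counts than either α subunit.

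Among voltage-gated potassium channels kcnh6a, a relative of the human hERG channel of repolarization, led with 112, 138 and 133 CPM and 70.4 ± 2.45%, and kcnq1.1 came next with 22.6 ± 2.95%. kcne4 was the only KCNE row, with 5.78, 7.03 and 7.65 CPM. Inward rectifiers, which set the resting potential, did not keep an order: kcnj19a had 24.1, 50.1 and 91.2 CPM and kcnj14 26.9, 37.5 and 23.4 CPM. kcnj14 led in replicate 1 and kcnj19a in replicates 2 and 3. Of the HCN pacemaker channels hcn2b took 92.4 ± 2.35%, with 19.4, 27.5 and 29.7 CPM, and hcn4 3.16 ± 0.573%.

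The sodium pump was divided between α subunits atp1a1a.1 with 62.1 ± 5.41% and atp1a3b with 37.6 ± 5.38%. Its β subunit came from atp1b1a, with 2480.3, 2602 and 2809 CPM and 98.5 ± 0.223%, and its regulator fxyd1 had 1321 ± 57.4 CPM. Connexins, the gap junction proteins that pass current between cells, were led by gja5a and gja5b. gja5a had 56.2, 61.5 and 57.5 CPM and 39.6 ± 8.97% of the family. gja5b had 31.9, 56.1 and 58.4 CPM and 31.7 ± 5.08%, and other connexin rows took the rest. gja5b was marginally above gja5a in replicate 3. The connexin gene cx32.2 had 3.62, 35.5 and 7.34 CPM, highest in replicate 2. The chloride channel gene clcn7, known from lysosomes, had 46.1 ± 0.945% of its family, and the plasma membrane calcium pump gene atp2b4 60.02 ± 2.37%. Potassium leak channels were at the edge of detection, with 2.40, 3.78 and 3.39 CPM for the leading kcnk15. Of the anion channels of the mitochondrial outer membrane vdac2 took 64.2 ± 2.72% over vdac3. The aquaporin family was led by aqp8a.1 in replicates 1 and 2 only, with 37.4, 8.72 and 7.09 CPM.

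In glycolysis most steps had a clear leader: hk1 with 97.3 ± 0.721% of hexokinase, pfkmb with 77.8 ± 1.18% of phosphofructokinase, aldoaa with 79.6 ± 0.826% of aldolase, tpi1b with 98.9 ± 0.179% of triosephosphate isomerase, pgam2 with 78.7 ± 2.89% of phosphoglycerate mutase, eno3 with 75.8 ± 2.75% of enolase and pkma with 87.4 ± 1.81% of pyruvate kinase. ldhba, the heart-type subunit that favours lactate use in mammals, took 81.8 ± 3.29% of lactate dehydrogenase, and ldha, with 1541, 752 and 978 CPM, 18.2 ± 3.28%. Glucose transporters had the lowest leading share of all metabolic families, 36.1 ± 3.09% for slc2a1b before slc2a1a with 27.2 ± 3.49%. The lactate and pyruvate transporter slc16a3 took 87.7 ± 3.98% of its family. Glycogen phosphorylase was led by pygmb with 63.001 ± 2.09% over pygma. Of the pyruvate dehydrogenase kinases, which restrain pyruvate oxidation, pdk2a had 574, 743 and 821 CPM and pdk2b 519, 579 and 221 CPM. The pair were near each other in replicates 1 and 2 and apart in replicate 3.

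For ATP buffering ckma took 61.9 ± 2.20% of creatine kinase, ahead of the mitochondrial ckmt2b with 18.3 ± 0.823% and of ckbb with 11.005 ± 1.23%. ak1 took 96.3 ± 1.40% of adenylate kinase and slc25a5 99.99 ± 0.00268% of the ADP/ATP carriers. In fatty acid use fabp3 took 95.1 ± 1.36%, cpt1ab, which lets fatty acids into the mitochondrion, 67.1 ± 2.09% over cpt1b, and acsl1b 72.0 ± 2.90% of the acyl-CoA synthetases. Subunits of cytochrome c oxidase that come in alternative forms were led by cox4i1l with 69.4 ± 6.16%, cox6a2 with 95.6 ± 0.881%, cox6b2 with 58.1 ± 5.23%, cox7a1 with 73.2 ± 0.723% and cox8b with 66.3 ± 0.963%. In mammals COX6A2, COX7A1 and COX8B are the forms of heart and skeletal muscle. ucp2 took 88.9 ± 4.44% of the uncoupling proteins and ucp1 had no count. The coactivator genes ppargc1b and ppargc1a, which in mammals drive mitochondrial biogenesis, had 37.6, 71.5 and 56.5 CPM and 32.1, 47.6 and 58.9 CPM, with the lead changing in replicate 3.

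The rest of the metabolic families covered the TCA cycle, iron and nuclear receptors. idh2, an isocitrate dehydrogenase of the mitochondrion, took 70.6 ± 0.929% of its family. Iron storage came from fth1a with 50.1 ± 3.65% of the ferritin rows and fthl27_1 with 40.04 ± 3.69%, which are close copies. Glutathione peroxidases were divided between gpx4b with 43.1 ± 2.20% and gpx4a with 29.6 ± 4.45%. The nuclear receptor genes of energy metabolism were low: ppardb, a PPAR gene, had 9.22, 8.83 and 8.25 CPM and esrra, an estrogen-related receptor gene, 35.9, 37.8 and 30.0 CPM. Both led their families in all 3 libraries.

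Regulator families, added after the data were seen, were looked at in the same way. nkx2.5, a core cardiac homeobox gene, had 325, 335 and 288 CPM and took 99.8 ± 0.0828% of its family. gata5 and gata6 took 51.1 ± 5.13% and 45.3 ± 5.47% of the GATA factors and gata4 0.533 ± 0.0800%. mef2aa and mef2d shared the MEF2 family with 47.1 ± 0.452% and 39.5 ± 0.806%. tbx5a led the T-box genes with 54.9 ± 3.99% and irx1a the Iroquois genes with 57.9 ± 3.73%. Among receptors, the histamine receptor gene hrh3 had 213, 129.7 and 164 CPM, the β-adrenergic receptor gene adrb1 4.67, 12.6 and 13.9 CPM and the muscarinic receptor gene chrm2a, through which the vagus nerve slows the heart, 4.67, 4.94 and 8.20 CPM. hrh3 had the highest CPM of these 3 receptors in each library.

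Spread among the 3 libraries was measured as the CV of CPM, the SD as a percentage of the mean, for 1881 genes that averaged 50 CPM or more. The median CV was 13.8%, with quartiles of 8.40% and 20.5%, against a median of 2.31% that counting alone would give. Only 33 genes had a CV under that of counting, 608 a CV under 10%, 28 over 50%, and 105 (5.58%) differed at least 2-fold between their highest and lowest library. The median CV was 14.9% between 50 and 100 CPM and 11.2% at 1000 CPM or more. edgeR's biological coefficient of variation over 12546 genes with at least 10 counts in each library was 0.245.

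**Figure D4:**
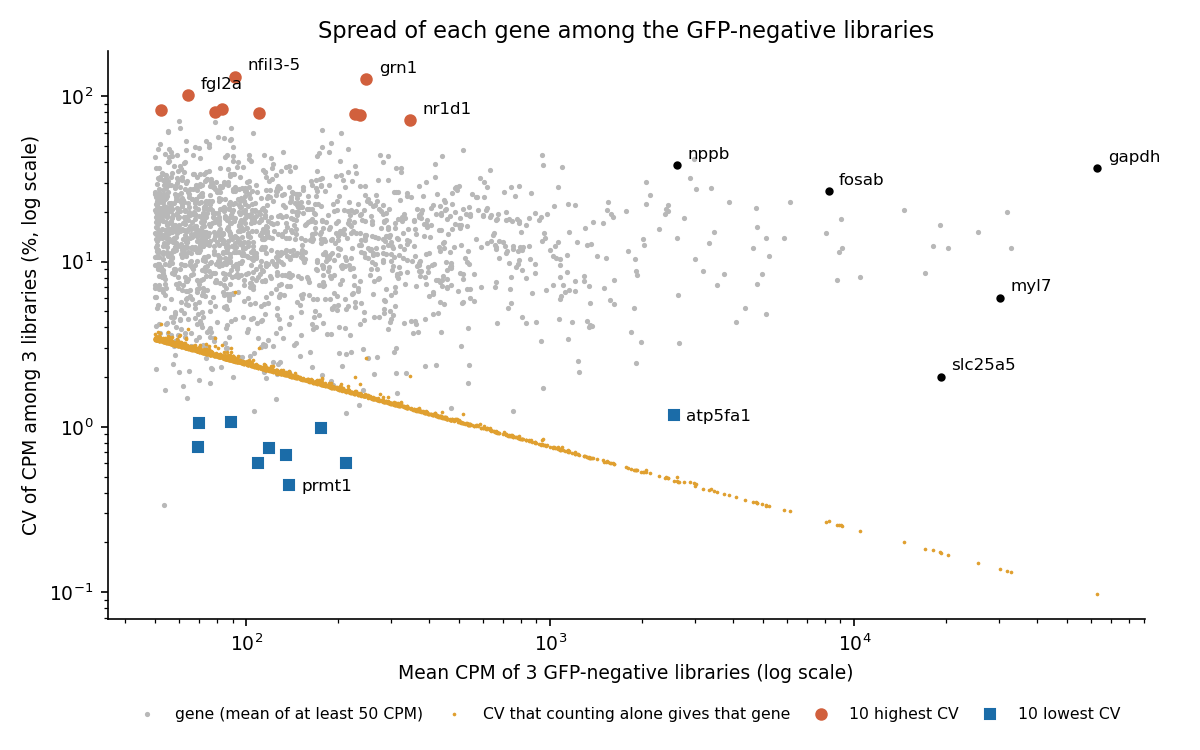
CV of CPM among the 3 GFP-negative libraries (%) against mean CPM, both on log scales, 1 grey dot per gene of at least 50 CPM, with the CV from counting alone in yellow. Nearly all genes lie above the counting values. The 10 highest CVs (red) run from 71.7% (nr1d1) to 132% (nfil3-5), the 10 lowest (blue) from 0.443% (prmt1) to 1.19% (atp5fa1), among genes with an established symbol.

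By class, median CVs were lowest for the TCA cycle (9.19%, 27 genes), cytosolic ribosomal proteins (9.57%, 80), nuclear oxidative phosphorylation (9.97%, 102) and fatty acid oxidation (10.1%, 34). They were highest for immediate early genes (20.3%, 40), heart transcription factors (17.8%, 12) and sarcomere genes (17.6%, 60). Genes in no class had 14.8% (1120). Of the 118 genes at 1000 CPM or more, atp5fa1, slc25a5 and casq2 varied least, with CVs of 1.19%, 2.01% and 2.16%. ak1, nppb, ldha and gapdh varied most, with 41.8%, 38.2%, 37.2% and 36.8%. gapdh, ak1 and ldha were all highest in replicate 1, and nppb lowest in replicate 2. All these CVs are of plain CPM, and neither the class medians nor the ranking of the 118 genes was computed with other scalings. The CV of atp5fa1 was 11.3% with TMM and 13.4% with DESeq2 factors. slc25a5 and casq2 went from highest in replicate 3 to highest in replicate 1 under either.

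Among genes with an established symbol, the 10 with the lowest CV were prmt1, bcl2l10, tmem14ca, rps19, rai14, mbd3a, gabarapl2, lsm12b, cst14a.2 and atp5fa1. prmt1 (ENSDARG00000010246), an arginine methyltransferase gene, had 138, 138 and 137 CPM. rps19, a protein of the small ribosomal subunit, had 134, 136 and 134 CPM, and the ATP synthase α subunit gene atp5fa1 2517, 2534 and 2576 CPM. The first 9 of them had a CV under that of counting alone, 0.443% to 1.07%. Which genes came out as most even depended on the scaling: with TMM or DESeq2 factors in place of plain totals, none of the 10 was among the 10 lowest, and their CVs reached 12.8% and 14.9%. TMM moved every gene by 0.19, -0.13 and -0.07 on the log2 scale in replicates 1, 2 and 3 relative to CPM, and DESeq2 factors moved them by 0.23, -0.15 and -0.04. With TMM the lowest were the haemoglobin row hbba1_1, kcnh6a, tbxas1, ifngr2, gstm.1, dnaja2a, tmed2, vamp3, trdn and jph2.

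Those with the highest CV were nfil3-5, grn1, fgl2a, cited4a, slc43a3b, marcksl1b, bhlhe41, bhlhe40, cd74a and nr1d1. nfil3-5 (ENSDARG00000094965), a relative of the bZIP repressor NFIL3 of the circadian clock, had 229, 40.9 and 4.61 CPM, high in replicate 1. grn1 (ENSDARG00000089362), a granulin gene, had 44.2, 609.5 and 89.6 CPM, and fgl2a, of the fibrinogen-like family, 26.4, 139.5 and 27.1 CPM, both high in replicate 2. cited4a, slc43a3b and marcksl1b were likewise highest in replicate 2, with 49.0, 163 and 37.4 CPM, 18.4, 101 and 37.3 CPM and 26.2, 149.5 and 61.3 CPM. Of the 10 genes, 9 remained among the 10 most variable with TMM factors and 8 with DESeq2 factors. Without replicates 1, 2 and 3 in turn, 4, 4 and 6 remained.

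Of the 100 genes with the highest CV, 54 were highest in replicate 2, 29 in replicate 3 and 17 in replicate 1. This split turned round with the scaling: with TMM factors 58 of the 100 most variable were highest in replicate 1, 30 in replicate 2 and 12 in replicate 3, and with DESeq2 factors 63, 25 and 12. Of all 1881 genes, 591, 874 and 416 were highest in replicates 2, 3 and 1, and 1077 were lowest in replicate 1. This split turned round too. With TMM factors 287, 609 and 976 of the genes at 50 CPM or more were highest in replicates 2, 3 and 1, and 454 were lowest in replicate 1.

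Genes of the circadian clock varied more than most detected genes. The list was added after the data were seen. In the clock, activators of the arntl and clock families switch on period, cryptochrome and nr1d genes, whose products repress them in turn, while the dbp and tef activators and the nfil3 repressors compete at shared sites of output genes. Of 42 rows, 27 had at least 1 CPM in all 3 libraries. Of those, 25 (92.6%) differed at least 2-fold between their highest and lowest library, against 17.9% of all 11231 genes at that level, and their median CV was 55.6% against 19.8%. With TMM or DESeq2 factors 24 of the 27 differed at least 2-fold. The share of all detected genes was not computed with these factors, so these counts have no comparison.

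The clock genes did not all move one way. nr1d1 (ENSDARG00000033160), a nuclear receptor that represses arntl genes, had 61.4, 455 and 517 CPM, and dbpb 6.14, 59.7 and 76.8 CPM. ciarta and per1a had 3.69, 40.6 and 65.7 CPM and 1.23, 12.4 and 15.5 CPM. These 4 were low in replicate 1 and high in both others. bhlhe40 and bhlhe41, repressors of the same loop, had 82.9, 176 and 426 CPM and 34.0, 91.2 and 204 CPM, lowest in replicate 1 and highest in replicate 3. By contrast arntl1a had 42.5, 18.8 and 6.99 CPM, cry1a 82.5, 27.9 and 25.2 CPM and cry1b 36.68, 5.52 and 2.73 CPM. These 3 and nfil3-5 were highest in replicate 1. rorcb, of a receptor family that activates arntl genes in mammals, had 297, 36 and 3 counts. In plain CPM, 11 of the 27 rows were highest in replicate 1, 5 in replicate 2 and 11 in replicate 3. The shares of all detected genes were 15.5%, 48.1% and 36.4%. With TMM or DESeq2 factors the 27 rows divided as 12, 4 and 11. All detected genes then divided as 36.2%, 33.0% and 30.8% with TMM, and as 39.3%, 27.8% and 32.9% with DESeq2.

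**Figure D5:**
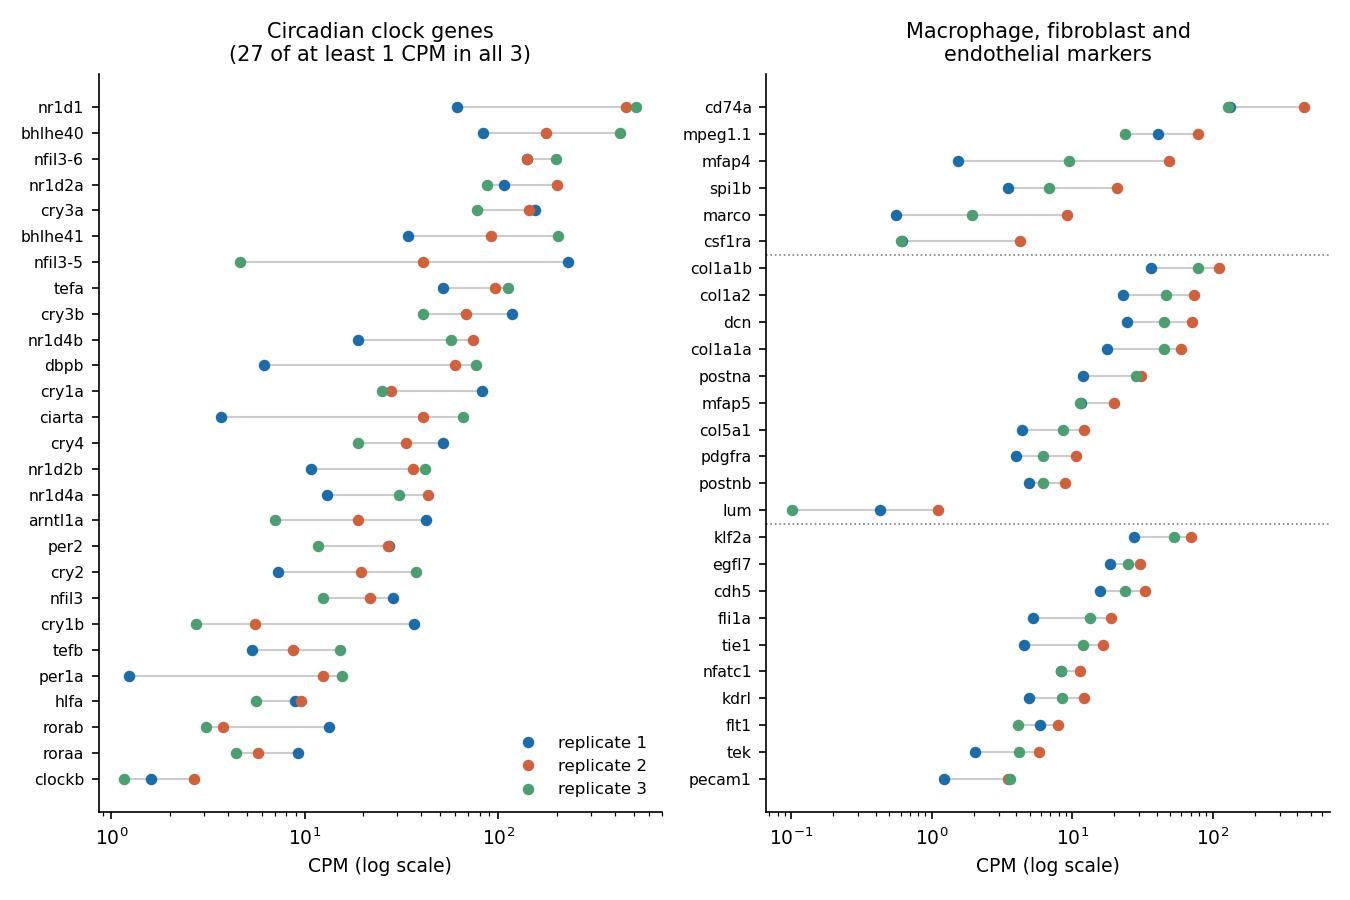
CPM (log scale) in each GFP-negative library, 1 dot per library, of the 27 circadian clock genes of at least 1 CPM in all 3 (left) and of macrophage, fibroblast and endothelial markers (right, in that order, divided by dotted lines). nfil3-5, cry1b and arntl1a are highest in replicate 1, where nr1d1, dbpb and per1a are lowest, and the markers of other cell types are highest in replicate 2 with the exception of pecam1.

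All 6 macrophage markers were highest in replicate 2, as were 48.1% of the 11231 genes of at least 1 CPM in all 3 libraries. Of these markers, only 4 were themselves at that level. With TMM scaling all 6 remained highest in replicate 2, against 33.0% of the 11231 genes, and with DESeq2 scaling likewise, against 27.8%. The first of them, cd74a, encodes the invariant chain of antigen presentation and had 133, 448 and 129.5 CPM, mpeg1.1, which encodes a pore-forming protein of macrophages, 40.9, 79.3 and 23.8 CPM and mfap4 1.54, 48.6 and 9.52 CPM. spi1b, the PU.1 gene of myeloid cells, had 3.50, 20.8 and 6.84 CPM, and csf1ra 10, 73 and 12 counts. Some genes outside the list were also highest in replicate 2. They were picked after their values were seen, so they do not add a separate observation. The complement genes c1qb and c1qc had 11.7, 84.0 and 21.4 CPM and 13.3, 73.1 and 16.8 CPM, acod1, the itaconate enzyme of activated macrophages, 2.58, 71.6 and 15.2 CPM, and the leukocyte actin-bundling gene lcp1 33.4, 109 and 37.2 CPM. In plain CPM, of the 40 most variable genes with a mean between 10 and 50 CPM, 37 were highest in replicate 2, against 46.6% of all 3938 genes of that level. The 40 include mfap4, spi1b, c1qb, c1qc and acod1 given above, so they do not add a separate observation. This split of the 40 was not counted with other scalings.

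Fibroblast and endothelial markers were also highest in replicate 2, 10 of 10 and 9 of 10 of them, against the same 48.1% of detected genes. Of these markers, 9 fibroblast and 10 endothelial genes had at least 1 CPM in all 3 libraries. Of each list 8 of 10 were lowest in replicate 1, which was also lowest for 63.9% of detected genes. col1a1b, a collagen I gene, had 36.5, 111 and 78.4 CPM and the endothelial cadherin gene cdh5 15.9, 32.9 and 23.8 CPM. The exception was the endothelial adhesion gene pecam1 with 1.23, 3.49 and 3.59 CPM. The counts of both lists were the same with TMM and DESeq2 factors. Of detected genes, 33.0% and 27.8% were then highest in replicate 2, and 38.4% and 34.7% lowest in replicate 1. Neutrophil markers did not share the order: nccrp1 had 111, 92.2 and 82.2 CPM and mmp9 11.7, 31.6 and 34.0 CPM. The part of other cell types in the spread of grn1, fgl2a and the other genes that were high in replicate 2 was not tested.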

How the data were processed

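Each library came as a table in which the authors deposited raw counts, whole numbers without normalization, for 25281 rows that carry a symbol and an Ensembl identifier. Per the labels' protocols, RNA was isolated by NucleoSpin XS, amplified as cDNA by SMART-Seq v4 and built into directional libraries by NEBNext Ultra II. Aligner, counting program, build and annotation were not given in the sources used here. No coordinates are therefore given. Close copies, among them cardiac actins, the ventricular myosins, haemoglobins, calmodulins and HSP70 genes, have uncertain levels to the degree that the counting could split their reads.

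CPM are counts divided by the library's total, without TMM scaling. Spread was also scaled with TMM factors (edgeR 4.0.16, R 4.3.3) and DESeq2 1.42.0 size factors of the 3 libraries. The biological coefficient of variation came from edgeR with an intercept alone. Other values were computed with Python 3.11.15 and pandas 2.3.3. Number suffixes, present on 1173 symbols, were ignored in matching lists, and 23499 identifiers matched the gene name table. The ventricular marker vmhc, the erythrocyte marker ba1 and the lymphocyte marker ighm matched no row. Family shares had been planned per coding length, but transcript lengths and sequences were not used here, so all shares are of counts.

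Members, classes, families and marker lists were chosen with earlier results of these data known. The named genes are the 25 most abundant, leaders and runners-up of families, the 10 lowest and 10 highest CVs, and the leading members of classes and marker lists. Further genes, the clock list and the regulator families were picked once values had been seen, and some class definitions were corrected then. Alternatives were other scalings, filters and denominators, and leaving out each replicate.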

Additional observations from a re-analysis of the deposited data

How the results depend on the processing

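No paired analysis was possible because the report describes 1 group and makes no test between groups. Of 51 values of the main results under alternatives, 40 stayed within a set limit. That limit was 1.5-fold for counts and the SD of the 3 libraries for shares. For the biological coefficient of variation and the median CV it was the SD of the 3 values that leave out a replicate, which are among the values judged. Without mitochondrially encoded genes in the total, a mean of 108 genes held 50% of the counts, in place of 65, and the shares of the sarcomere, nuclear oxidative phosphorylation and the phosphagen class were 18.2%, 9.79% and 4.09%. Glycolysis without gapdh, chosen after seeing the data, took 3.56%. Detected genes numbered 16867 with 1 count in all 3 libraries and 5025 with 10 CPM. The biological coefficient of variation was 0.289 without a filter and 0.197 with at least 100 counts, where fewer low genes entered, and 0.220 to 0.269 without 1 replicate. The median CV was 7.87% without replicate 1, the lowest, and at most 13.3% without another, against 13.8% with all 3. CVs with a replicate left out rest on fewer libraries and are not directly comparable with those of 3, and the cause was not tested. Of 78 families, 77 kept their leading gene without replicate 1, where hspb1 replaced hspb11, and 78 without each of the others. Mean CPM of the 25 most abundant genes stayed within 1 SD in 125 of 125 values. Leaving out 1 of 3 libraries cannot move a mean by a full SD. The values without a replicate therefore had to stay within it, as had those of the class shares. The CVs of the 20 named genes moved by over 1.5-fold in 38 of 100 values, those of the lowest 10 under either scaling among them. The splits of highest and lowest libraries under other scalings were also added after seeing the data. Shares per length of coding sequence were not run, since no lengths were used. The CV from counting was small beside the spread between the 3 libraries, but without molecular identifiers it covers counting alone and not the amplification.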

Other observations

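Of the remaining pacemaker markers, the connexin gene cx36.7 had 9.83, 12.1 and 16.7 CPM and tbx18, of the sinus node and epicardium, 2.46, 5.69 and 3.39 CPM. Skeletal muscle markers were carried by ckma and acta1b, at 5131 ± 247 and 4761 ± 1009.7 CPM, while the fast myosin gene myhz2 and the troponin I gene tnni2a.4 had no count and mylpfa had 0, 1 and 10 counts. The smooth muscle list was carried in the same way by acta2 at 226 ± 39.5 CPM, and myh11a, the smooth muscle myosin gene, stood at 3.88 ± 2.32 CPM. Epicardial tcf21 had 4.18, 7.44 and 6.08 CPM and wt1b 0.430, 1.104 and 0.557 CPM, against 126, 137 and 87.9 CPM for the keratin gene krt94. Thrombocyte markers summed to 23.4, 64.1 and 42.9 CPM and neutrophil markers to 135, 154 and 159 CPM. Among genes chosen after their values were seen, fkbp5, a glucocorticoid-induced chaperone gene in mammals, had 143, 345 and 125 CPM, highest in replicate 2, and the muscle LIM protein gene csrp3 888, 457 and 556 CPM, highest in replicate 1.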
